A study of Mus musculus with 29 samples.

Results

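Amputated and unamputated mouse digits were compared by poly(A) RNA-seq at day 7, with 3 libraries in each group. These 6 libraries were chosen by their labels from the 29 of the series: 3 labelled as SNI with amputation and 3 labelled as SNI without amputation, both at 7 days after amputation. SNI, spared nerve injury, is a surgery that cuts 2 of the sciatic branches, the tibial and the common peroneal, in the left hindlimb and leaves the sural branch intact. Both groups carry the label of this denervation, and in the amputated group amputation through the third phalanx followed 5 days after surgery. The unamputated libraries bear the same day and the same regenerate tissue tag as the amputated ones, so the treatment label decided the group, and the sources used here do not give how their day was counted. Tissue beyond the metacarpophalangeal joint was taken without the nail, so each library holds skin, nerve, vessel, tendon and bone of much more than the cut tip. The sources used here give no strain, age or sex. The labels call the libraries biological replicates, with no statement of which digits or animals were pooled. Total counts ran from 36101656 to 43072558 per library.

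A cut nerve loses its distal axons, and Schwann cells, the glia that wrap them, then shed their myelin programme and turn into repair cells that guide axon regrowth. Low myelin genes such as Mbp and high Ngfr, Gap43 and Sox2 are the known signs of that state in rodent nerve. The mouse digit tip regrows after amputation through the third phalanx: keratinocytes close the wound, osteoclasts erode the bone stump and a blastema of connective tissue cells rebuilds the bone. Schwann cells are known to contribute to that regrowth in mice.

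Denervation genes of the unamputated libraries were set beside the time course of the same series, a separately normalized table of digits amputated after SNI or sham surgery, and the genes differed in where these libraries lay. The genes were chosen for this check after their values were seen. Mbp, myelin basic protein, was at 36.3, 39.1 and 74.6 CPM (counts scaled to library size by TMM) in amputated SNI digits and at 106, 105 and 103 CPM in unamputated SNI digits. In the time course at day 7 it was at 49.7, 18.7 and 28.6 CPM after SNI and at 111, 106 and 50.9 CPM after sham surgery. C1ql2, a secreted C1q family protein, had 12, 15 and 9 counts in amputated SNI digits and 0 counts in each unamputated library, at least 10.9-fold higher at a floor of 3 counts over the unamputated group. In the time course at day 7 C1ql2 was at 0.121, 0.391 and 0.2 CPM after SNI and at 0, 0 and 0.106 CPM after sham surgery. The unamputated libraries were within the sham range for Mbp and C1ql2 and outside the SNI range for both, while sham replicate 3 was low for Mbp. The same held for the myelin genes Pmp22 and Pmp2, whose unamputated levels are given below. Pmp22 was at 97.99, 68.71 and 78.55 CPM after SNI and at 148.5, 148.9 and 95.12 CPM after sham surgery. Pmp2 was at 0.342, 0.15 and 0.0222 CPM after SNI and at 1.92, 1.72 and 0.465 CPM after sham surgery. Ngfr was at 21.4, 6.65 and 25.1 CPM after SNI and at 12.1, 11.5 and 22.3 CPM after sham surgery. It thus overlapped between SNI and sham digits of the time course. The unamputated libraries, at 9.6, 7.88 and 6.5 CPM, lay below the sham range and overlapped the SNI range. Their overlap with the SNI range rested on SNI replicate 2, at 6.65 CPM. Its TMM factor was 0.77, against 1.1 and 1.02 in SNI replicates 1 and 3. Gap43 and Sox2 in the unamputated libraries, at 0.376 to 0.546 and 0.549 to 0.944 CPM, lay below both ranges. These were 3.01 to 6.98 CPM after SNI and 1.42 to 2.85 CPM after sham surgery for Gap43, and 1.86 to 3.26 CPM after SNI and 1.25 to 3.32 CPM after sham surgery for Sox2. The C1ql2 call (adjusted p = 0.0181) was lost without 4 of the 12 libraries in turn (adjusted p up to 0.0635). At day 14 Mbp was again lower in amputated digits, at 32.4, 35.8 and 32.6 CPM, against 111, 137 and 103 CPM in unamputated digits. Whether the difference between the groups below comes from amputation or from a different nerve state cannot be told apart. Levels from the separate tables can be set side by side but were not tested against each other.

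**Figure D1:**
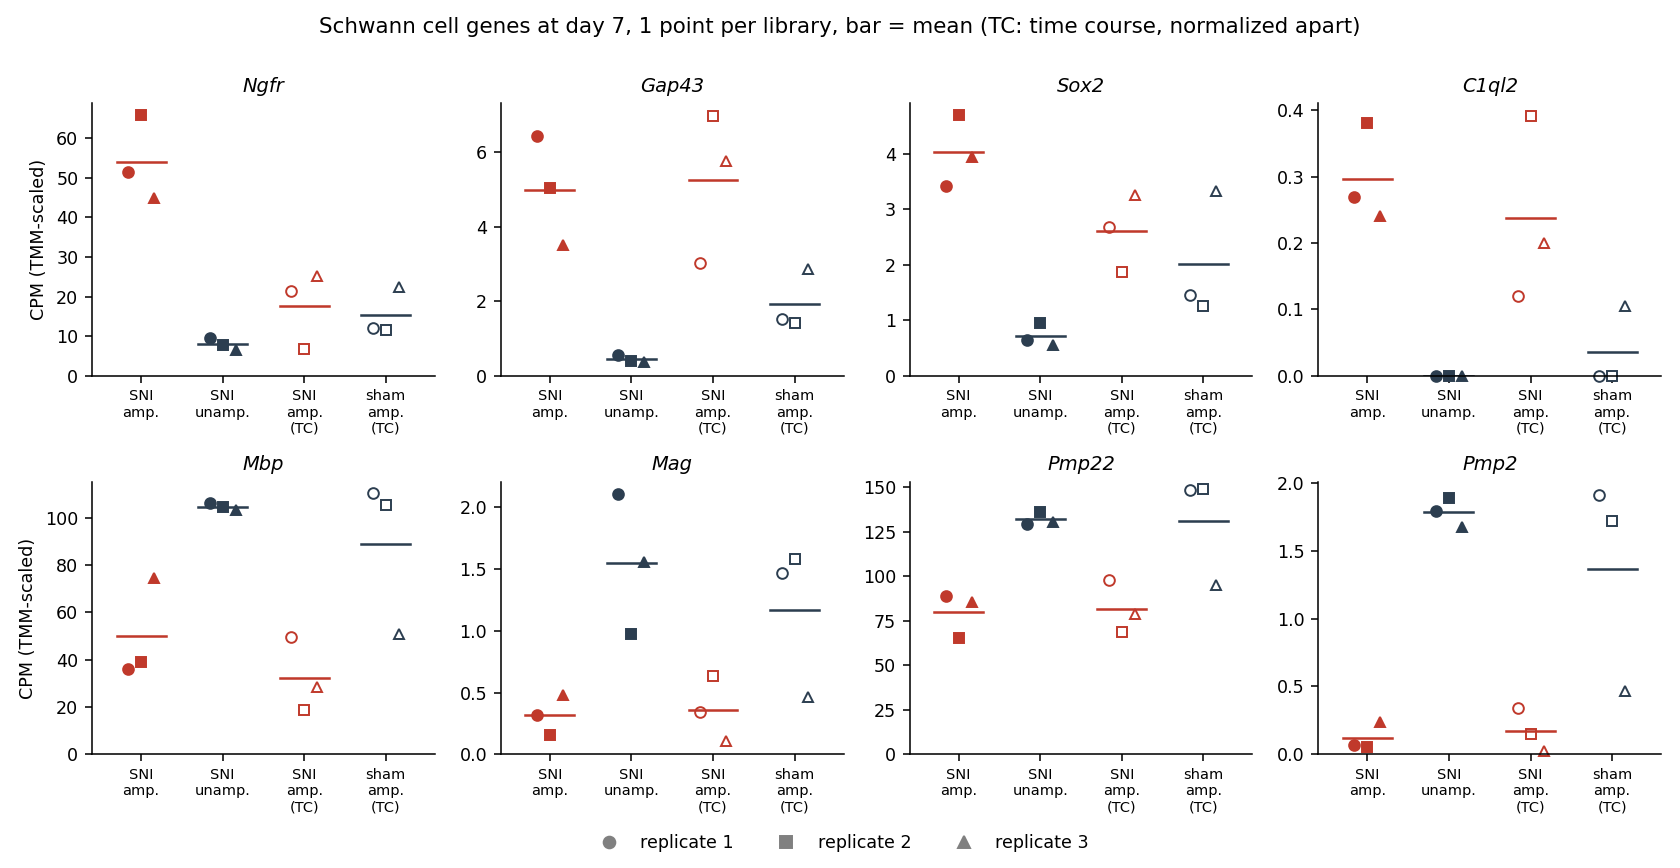
Levels in TMM-scaled CPM of 8 genes (Schwann cell genes and C1ql2) at day 7, with 1 point per library and a bar at the mean of 3. Filled points are the SNI amputated and SNI unamputated libraries, and open points (TC) are the SNI and sham libraries of the time course, which was normalized apart. Mbp lies between 103 and 106 CPM in all unamputated libraries, and C1ql2 is at 0 in them.

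Across the whole genome, few genes were called at day 7. Of 17475 genes tested, 236 were called at an adjusted p under 0.05 by the quasi-likelihood test of edgeR (1.35% of those tested), 105 higher in amputated digits (0.601%) and 131 lower (0.75%). The median log2 fold change (amputated minus unamputated) of all tested genes was 0.00247. Among the called genes, 55 were higher and 28 were lower with a log2 fold change over 1 in size. Against a threshold of 2-fold itself 7 genes held (0.0401% of those tested): 6 were higher in amputated digits (0.0343%), Ngfr, Gap43, Epha5, Sox2, Fgf5 and Gzmb, and 1 was lower (0.00572%), Pmp2. This count was 2 without unamputated replicate 1, 2 without unamputated replicate 3, 3 without unamputated replicate 2, 4 without amputated replicate 2 and 3 with limma voom, with 0 genes lower in each of those fits. The groups did not overlap for 19.2% of all tested genes, 10.4% with the amputated digits higher and 8.86% with them lower. The count ran from 84 to 315 genes without each of the 12 libraries in turn, lowest without unamputated replicate 1, and 59 of the 236 genes were called in all of those fits. A gene lost in some of those fits is marked as such below.

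**Figure D2:**
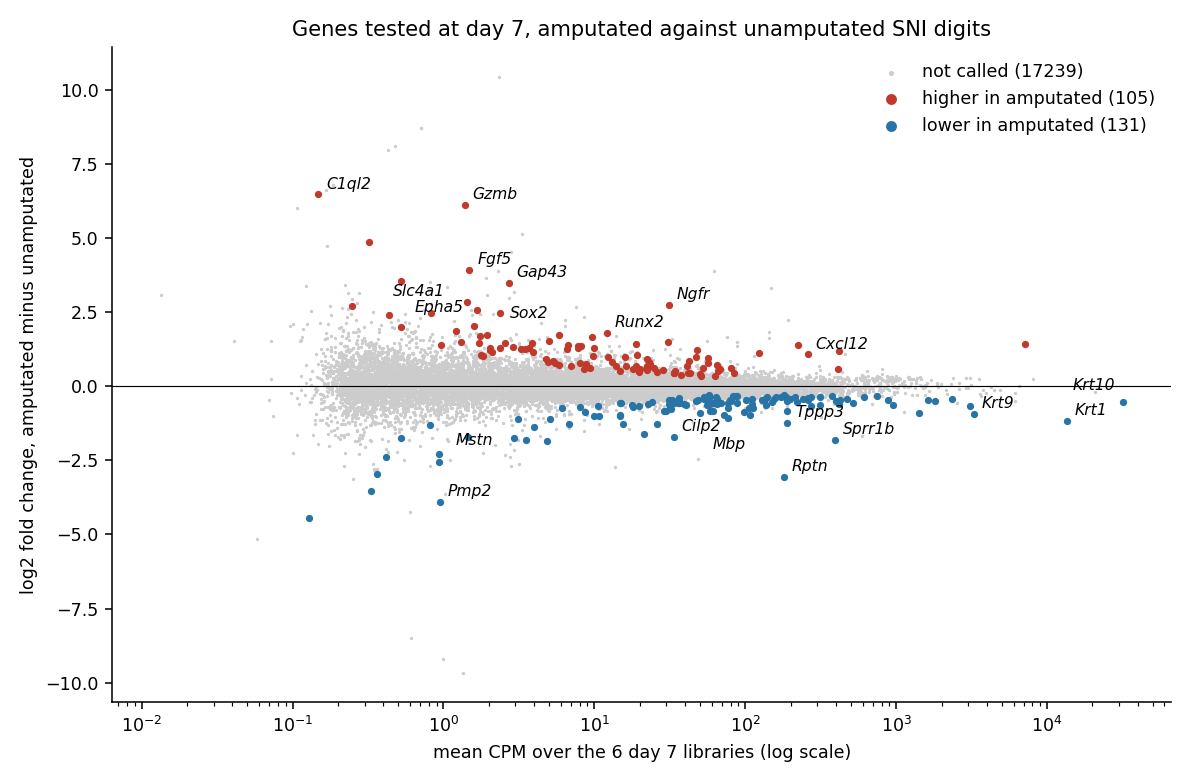
Log2 fold change at day 7, amputated minus unamputated, of the 17475 genes tested against the mean CPM over the 6 libraries (log axis). Red points are the 105 genes called higher in amputated digits, blue points the 131 called lower and grey points the 17239 not called.

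A set of 3 repair genes of Schwann cells rose in amputated digits. Ngfr, the low-affinity neurotrophin receptor p75 of repair Schwann cells, was at 51.4, 65.8 and 45.0 CPM in amputated digits and at 9.6, 7.88 and 6.5 CPM in unamputated digits. All amputated libraries lay far above all unamputated ones, with a log2 fold change of 2.76 ± 0.20 (SE, adjusted p = 0.000123, edgeR). Gap43, a growth-cone protein that denervated Schwann cells also make, was at 6.42, 5.03 and 3.5 CPM in amputated digits and at 0.546, 0.405 and 0.376 CPM in unamputated digits (3.48 ± 0.29, adjusted p = 0.000196). Sox2, a transcription factor that keeps Schwann cells immature and is also made by Merkel cells, was at 3.41, 4.7 and 3.95 CPM in amputated digits and at 0.65, 0.944 and 0.549 CPM in unamputated digits (2.48 ± 0.26, adjusted p = 0.000697). These were the 3 called members of the 12 listed injury-response genes, and 0 were called lower. Of all tested genes 0.601% were called higher. The median log2 fold change of the list was 1.01, against 0.00247 over all tested genes. The other 2 tested Merkel cell genes, Krt20 and Piezo2, were not called. Of the other injury-response genes, Lif and Olig1 missed the threshold (adjusted p of 0.0522 and 0.0561), Gdnf was at 5.48 CPM against 3.0 CPM (adjusted p = 0.104), and Jun, which drives the repair programme in mouse Schwann cells, overlapped between groups.

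In the list of Schwann cell identity genes, 2 rose in amputated digits. Cdh19, a cadherin of early Schwann cells, was at 8.2, 12.1 and 8.88 CPM in amputated digits and at 4.47, 3.32 and 3.29 CPM in unamputated digits, without overlap. It rose by 1.40 ± 0.18 on the log2 scale (adjusted p = 0.00317), and Foxd3, a neural crest transcription factor, by 1.29 ± 0.21 (adjusted p = 0.00951), the Foxd3 call being lost with only the day 7 libraries fitted. Sox10 and S100b, which all Schwann cells express, were not called, with log2 fold changes of 0.33 ± 0.12 and -0.29 ± 0.14. The rises of Cdh19 and Foxd3 were the 2 calls among the 10 in the identity list, whose median was -0.06 (0.601% of all tested genes were called higher). In bulk tissue, fewer cells of a type and less RNA per cell cannot be told apart.

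Some myelin genes fell in amputated digits, unevenly between the libraries. Of 17 genes of the myelin sheath, 0 were called higher and 4 lower, 10 were lower without overlap, and the median log2 fold change was -0.85. Of all tested genes 0.75% were called lower and 8.86% were lower without overlap. Pmp2, a myelin fatty acid-binding protein outside that list and chosen after its values were seen, was at 0.0674, 0.0508 and 0.24 CPM in amputated digits and at 1.79, 1.89 and 1.68 CPM in unamputated digits (-3.90 ± 0.44, adjusted p = 0.0013). Pmp22, a structural myelin protein, was at 89.0, 65.4 and 85.7 CPM against 129, 136 and 131 CPM (-0.72 ± 0.11, adjusted p = 0.00756). Mbp, whose levels are given above, fell by 1.07 ± 0.23 on the log2 scale (adjusted p = 0.0473), a call lost without any 1 of 11 libraries (adjusted p up to 0.15). Without amputated replicate 3, the highest of its group at 74.6 CPM, the Mbp log2 fold change was -1.48 with an adjusted p of 0.000129. The other called members were Mag (-2.29 ± 0.45) and Mal (-0.56 ± 0.12), lost without any 1 of 4 and 11 libraries (adjusted p up to 0.128 and 0.113). All 4 calls of the list, Pmp22 included, were lost when only the day 7 libraries were fitted (adjusted p of 0.0578 to 0.178).

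Gfra1, Epha5 and Sema4f rose in amputated digits and Islr2 fell. Gfra1, the receptor of the growth factor GDNF, was at 31.5, 29.3 and 22.2 CPM in amputated digits and at 8.69, 11.9 and 10.0 CPM in unamputated digits, and was the 1 called member of 13 neurotrophic factor and receptor genes (1.44 ± 0.14, adjusted p = 0.000612). Of all tested genes 0.601% were called higher. Sema4f, a semaphorin chosen after its values were seen, rose by 1.71 ± 0.22 (adjusted p = 0.00294). Epha5, an ephrin receptor, was at 2.45, 3.48 and 2.61 CPM against 0.39, 0.512 and 0.52 CPM (2.58 ± 0.26, adjusted p = 0.000612). Islr2, a membrane protein of neurons, fell by 1.39 ± 0.25 (adjusted p = 0.0182), a call lost without any 1 of 4 libraries (adjusted p up to 0.0634).

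Krt1, Krt9 and Krt10 of the outer epidermis fell in amputated digits. Krt1 and Krt10 code for the keratin pair of suprabasal epidermis, and Krt9 for the keratin of footpad and sole. Krt1 was at 8229, 8813 and 7856 CPM in amputated digits and at 17330, 17650 and 21060 CPM in unamputated digits, without overlap (-1.17 ± 0.12, adjusted p = 0.000612). Krt9 was at 1982, 2336 and 2369 CPM against 4175, 3860 and 4836 CPM (-0.94 ± 0.11, adjusted p = 0.00129). Krt10 had a log2 fold change of -0.52 ± 0.08 (adjusted p = 0.00929), lost without amputated replicate 1 (adjusted p = 0.051). They were 3 called of 15 differentiation genes, with a median of -0.22, and 8 of the 15 were lower without overlap. Of all tested genes 0.75% were called lower and 8.86% were lower without overlap. Krt2, also suprabasal, was at 16870, 20790 and 20500 CPM in amputated digits and at 22140, 20090 and 23510 CPM in unamputated digits, overlapping, and Krt14, a keratin of the basal layer, at 4023, 4402 and 4231 CPM against 4308, 4095 and 4553 CPM. Krt14 had a log2 fold change of -0.03 ± 0.09, whose sign changes with the setting. In the separately normalized time course at day 7, all digits were amputated. There Krt1 was at 8622, 10020 and 8349 CPM after SNI and at 13220, 10210 and 13480 CPM after sham surgery. Krt2, Krt9 and Krt10 were also lower in every SNI library than in every sham library, and Krt14 overlapped. These levels were not tested.

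Some genes of the cornified layer and an epidermal ligand also fell in amputated digits. Sprr1b, a cornified envelope protein, was at 183, 161 and 177 CPM in amputated digits and at 521, 436 and 879 CPM in unamputated digits (-1.82 ± 0.25, adjusted p = 0.00756). Rptn, repetin, was at 54.0, 32.9 and 28.4 CPM against 238, 213 and 515 CPM (-3.06 ± 0.59, adjusted p = 0.0448), with unamputated replicate 3 the highest and the call lost without any 1 of 10 libraries (adjusted p up to 0.136). Of 21 late cornified envelope genes, a group chosen after its values were seen, 6 were called lower, 18 were lower without overlap and the median was -0.34. Over all tested genes 0.75% were called lower and 8.86% were lower without overlap. Lce3c was at 10.8, 8.43 and 12.5 CPM against 26.1, 26.1 and 44.5 CPM (-1.61 ± 0.27), a call lost without any 1 of 3 libraries (adjusted p up to 0.0736). Of the other called members, Lce1k stayed called without each library in turn, Lce1c was lost without any 1 of 5 libraries, and Lce1d, Lce1e and Lce1g without any 1 of 10 (adjusted p up to 0.163). Ereg, epiregulin, a ligand of the EGF receptor, was at 62.6, 70.8 and 84.5 CPM in amputated digits and at 129, 136 and 158 CPM in unamputated digits (-0.96 ± 0.11, adjusted p = 0.00138). All 15 tested wound keratinocyte genes had a negative fold change, with a median of -0.44, and Sprr1b and Ereg were the 2 called. Of 10 desmosome genes, also grouped after seeing values, Dsc1, Dsg1b, Pkp3 and Cdsn were called lower, by 0.36 to 0.48 on the log2 scale, each lost without 3 to 10 libraries in turn (adjusted p up to 0.138).

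**Figure D3:**
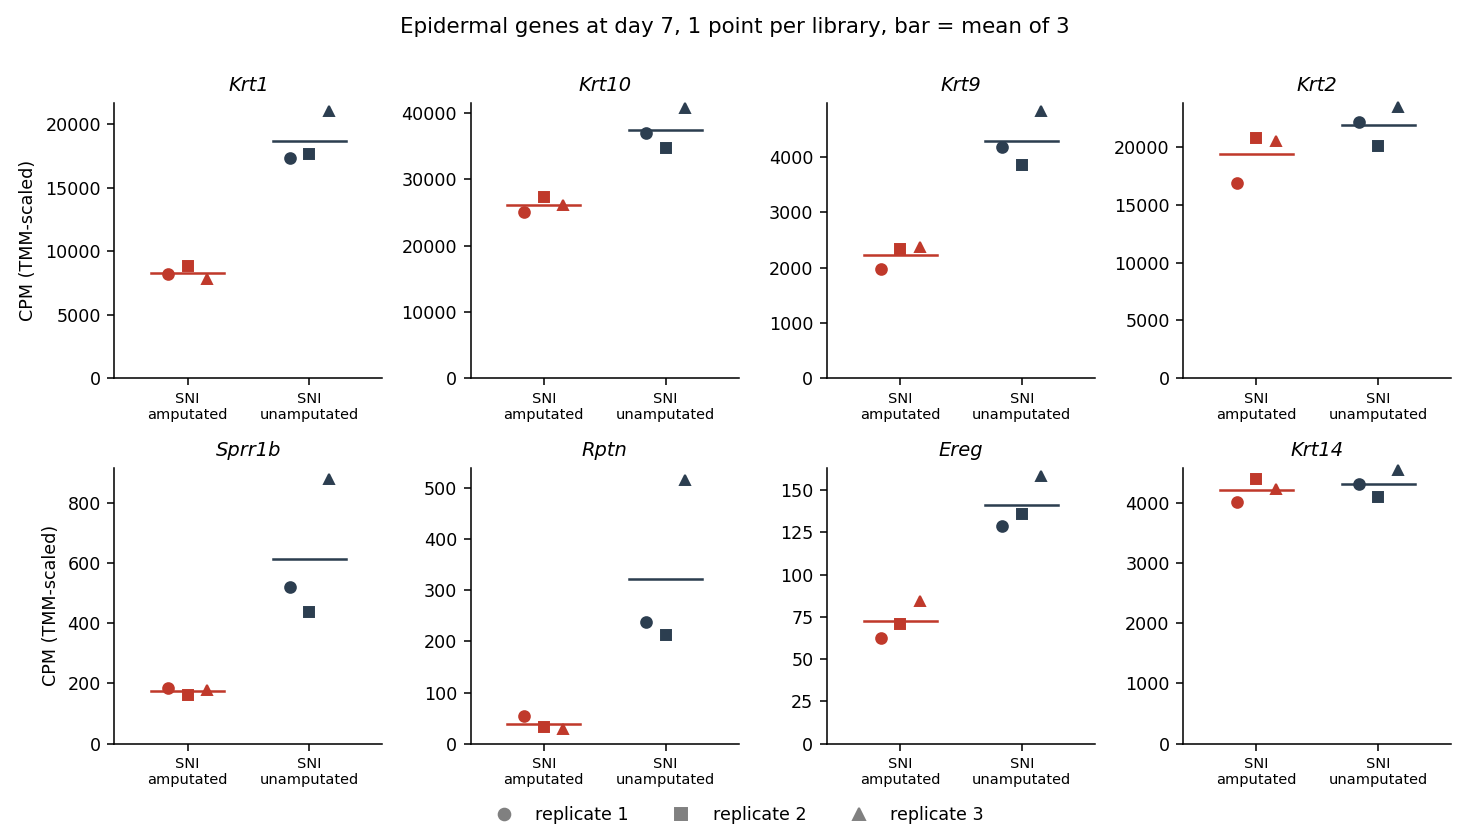
Levels in TMM-scaled CPM of 8 epidermal genes at day 7, amputated libraries on the left and unamputated on the right, 1 point per library and a bar at the mean of 3. Krt1, Krt9, Sprr1b, Rptn and Ereg are lower in every amputated library than in every unamputated one, and Krt14 overlaps.

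The upstream sequence of 3 named genes is shown as examples of a rise among Schwann cell genes and of falls among epidermal genes. They were chosen after their values and matches were seen. The stretches are the 200 bases from 250 to 51 before the RefSeq start (build GRCm38.p6), 5′ to 3′ on the gene's strand, with matches to the AP-1 motif TGANTCA or to CCAAT in capitals.
Ngfr, chr11:95587749-95587948, minus strand: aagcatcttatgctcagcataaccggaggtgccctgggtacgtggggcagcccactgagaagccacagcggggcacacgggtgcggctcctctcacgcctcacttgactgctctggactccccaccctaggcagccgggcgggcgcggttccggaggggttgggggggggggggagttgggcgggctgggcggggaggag
Sprr1b, chr3:92438830-92439029, minus strand: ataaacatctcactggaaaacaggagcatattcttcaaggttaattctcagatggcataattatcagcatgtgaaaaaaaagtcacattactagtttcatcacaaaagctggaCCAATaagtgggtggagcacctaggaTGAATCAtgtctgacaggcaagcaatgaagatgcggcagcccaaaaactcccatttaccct
Rptn, chr3:93393449-93393648, plus strand: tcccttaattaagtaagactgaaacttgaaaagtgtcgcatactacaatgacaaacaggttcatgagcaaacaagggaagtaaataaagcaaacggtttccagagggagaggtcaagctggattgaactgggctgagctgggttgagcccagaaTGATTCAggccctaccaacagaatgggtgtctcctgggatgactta
The Ngfr window held none of the motifs searched, which were the AP-1 motif, the CCAAT box, TATAAA and an E2F motif written as TTTCCCGC with the variant TTTGGCGC, searched on both strands with overlapping matches counted. Sprr1b held TGANTCA at -111 and CCAAT at -137, and Rptn held TGANTCA at -96. Over the same window, TGANTCA was found for 5.48% of the 73 genes called higher that had a window, for 8.08% of the 99 called lower and for 5.09% of the 12446 tested genes with one. CCAAT was found for 35.6%, 34.3% and 33.3%, and TATAAA for 9.59%, 7.07% and 6.2%. The E2F motif was found for 0%, 2.02% and 2.02%.

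Some vessel, fat and blood genes rose in amputated digits, where 0.601% of all tested genes were called higher. Vwf, a clotting protein of endothelium, was at 73.0, 80.0 and 70.1 CPM in amputated digits and at 33.7, 44.0 and 37.6 CPM in unamputated digits (0.95 ± 0.15, adjusted p = 0.00918; 0.0514 without unamputated replicate 1). It was the 1 called of 10 blood endothelial genes, all positive, 8 without overlap (10.4% of all tested genes were higher without overlap), with a median of 0.46. Vcam1, Icam1 and Selp, receptors on vessel walls for leukocytes, and Cldn5, a tight junction protein, were called higher by 0.59 to 0.98, grouped after seeing values, each lost without 1 to 10 libraries in turn (adjusted p up to 0.173). Cxcl12, a chemokine that attracts stem and immune cells, was at 416, 347 and 288 CPM against 159, 179.5 and 162 CPM (1.07 ± 0.15, adjusted p = 0.00599), and Ccl19 rose by 1.86 ± 0.32, lost without any 1 of 3 libraries (adjusted p up to 0.0717). Ccl21a of lymphatic endothelium rose by 1.5 ± 0.28, lost without any 1 of 6 libraries (adjusted p up to 0.133), and its near-identical copies in the genome make its count uncertain. Of 10 fat genes Retn and Lpl were called higher, lost without any 1 of 9 and 6 libraries (adjusted p up to 0.166 and 0.148), and the summed level of the list was 353.5 to 361 CPM in amputated digits and 223 to 252 CPM in unamputated digits. Slc4a1, the anion exchanger of red cells, was at 2.38, 3.1 and 2.03 CPM against 0.39, 0.162 and 0.491 CPM (2.84 ± 0.42, adjusted p = 0.00756), beside a summed erythroid level of 186 to 394 CPM in amputated digits and 83.8 to 141 CPM in unamputated digits; blood content was not tested.

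**Figure D4:**
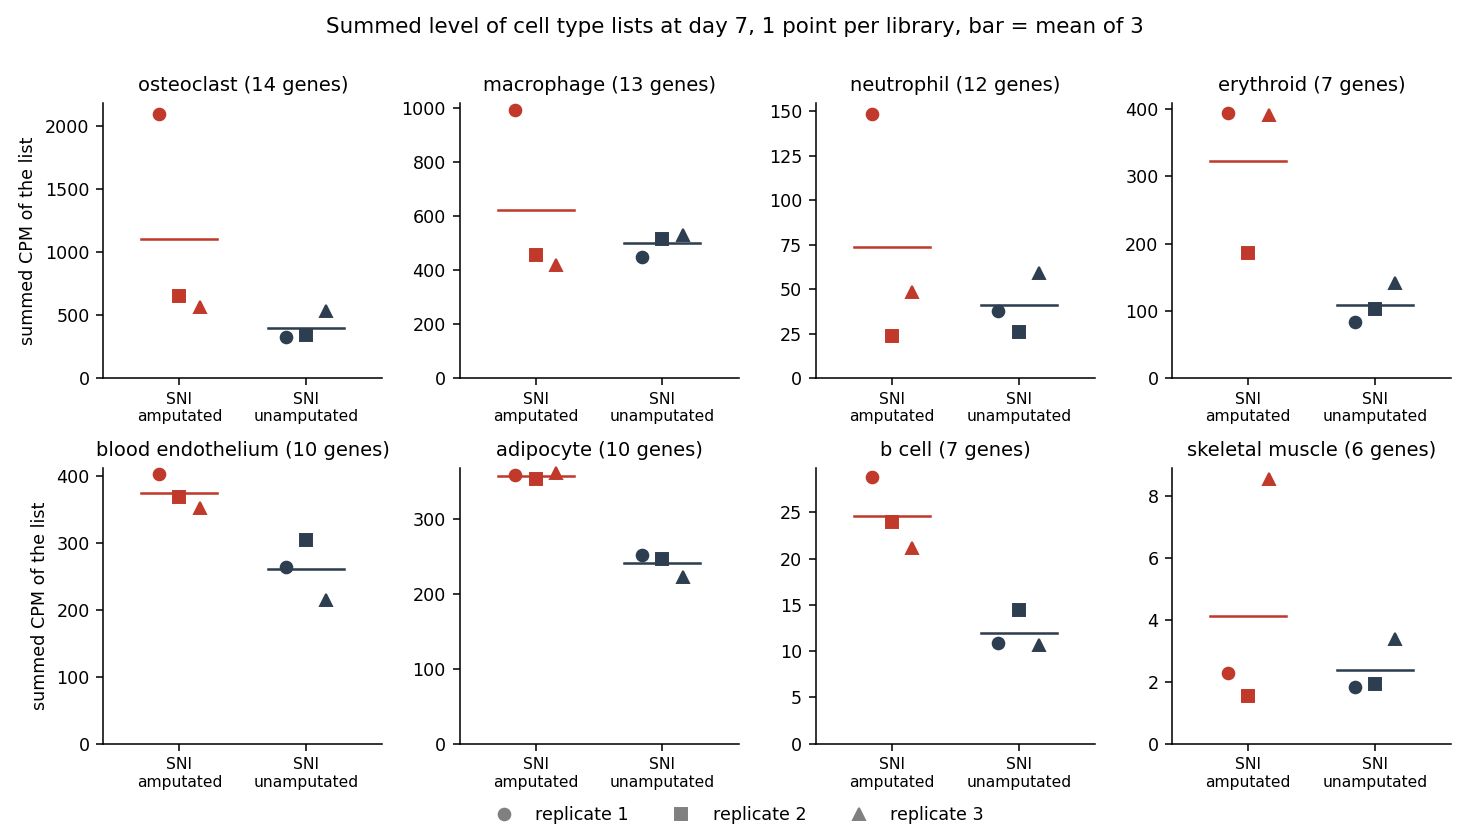
Summed TMM-scaled CPM of 8 cell type lists at day 7, amputated libraries on the left and unamputated on the right, 1 point per library and a bar at the mean of 3. Amputated replicate 1 is highest for osteoclast (2099 CPM), macrophage and neutrophil genes. The sums of osteoclast, erythroid, blood vessel, fat and B cell genes do not overlap between the groups. Those of macrophage, neutrophil and skeletal muscle genes overlap.

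Osteoclast genes did not pass. Acp5 was at 386, 138 and 126 CPM in amputated digits and at 58.1, 52.0 and 101 CPM in unamputated digits (1.62 ± 0.41, adjusted p = 0.107), and Ctsk, a bone collagen protease, at 684, 155 and 119 CPM against 36.2, 47.2 and 119 CPM (2.24 ± 0.71, adjusted p = 0.189). Of 14 tested, 0 were called, 13 were positive, 5 were higher without overlap and the median was 1.42. Over all tested genes 0.601% were called higher and 10.4% were higher without overlap. Without amputated replicate 1 the osteoclast median was 0.72. That library had a summed level of 2099 CPM against 655 and 569 CPM in the other amputated libraries. In unamputated digits the sums were 331, 344 and 530.1 CPM. Amputated replicate 1 was also the highest in summed macrophage genes, at 993 CPM against 455 and 421 CPM in the other amputated libraries and 449.9 to 532 CPM in unamputated digits; the part of that library's cells in the result was not tested. Runx2, a transcription factor of osteoblasts, was at 22.8, 20.3 and 13.3 CPM against 5.25, 4.64 and 6.42 CPM (1.79 ± 0.35, adjusted p = 0.0324), the 1 called of 14 osteoblast and osteocyte genes, and lost without any 1 of 8 libraries (adjusted p up to 0.141). Mgp, which inhibits calcification, rose by 1.22 ± 0.14 (adjusted p = 0.00159), and Tnc, a matrix protein of wounds, by 1.12 ± 0.22, with the Tnc call lost without any 1 of 9 libraries (adjusted p up to 0.15). Mgp was the 1 called of 14 cartilage genes, 8 of them negative with a list median of -0.13, and Tnc the 1 called of 17 collagen and wound matrix genes, 10 positive and 7 negative with a median of 0.04. Cilp2, a cartilage and tendon matrix protein, was at 16.5, 14.8 and 16.1 CPM against 62.4, 65.1 and 26.5 CPM (-1.70 ± 0.30), the lowest unamputated library being replicate 3, and lost without any 1 of 5 libraries (adjusted p up to 0.0899).

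Some immune and growth factor genes stood out singly. Gzmb, granzyme B, was at 3.53, 3.79 and 0.88 CPM in amputated digits and at 0.026, 0.027 and 0.0578 CPM in unamputated digits (6.11 ± 0.71, adjusted p = 0.00149). It was the 1 called of 10 T and NK cell genes, whose summed level was 13.2 to 17.7 CPM against 8.58 to 12.5 CPM. Fgf5, a growth factor that ends hair growth in mice, was at 2.94, 3.84 and 1.6 CPM against 0.208, 0.162 and 0.173 CPM (3.92 ± 0.41, adjusted p = 0.000697), and Msmp rose by 2.02 ± 0.31, a call lost with only the day 7 libraries fitted (adjusted p = 0.062). Myostatin, Mstn, was at 1.21, 1.42 and 1.44 CPM against 2.68, 4.42 and 6.47 CPM (-1.73 ± 0.32), lost without any 1 of 5 libraries (adjusted p up to 0.0729). Clec3a fell by 1.85 on the log2 scale, the collagen receptor gene Lair1 by 1.82 and Fxyd2, a sodium pump regulator, by 1.28, lost without any 1 of 5, 11 and 3 libraries (adjusted p up to 0.141). Genes of the cell cycle (0 of 21), the blastema and limb patterning (0 of 16), hypoxia and glycolysis (0 of 13), Wnt ligands and receptors (0 of 21), BMP and TGF-beta (0 of 20) and macrophages (0 of 13) were not called by edgeR. Lists of these sizes would hold few or no calls at the 1.35% called over all genes, and 2634 genes in all had an unadjusted p under 0.05. Negative fold changes were found for 20 of the 21 cell cycle genes (median -0.13) and 10 of the 13 hypoxia and glycolysis genes (median -0.16).

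**Figure D5:**
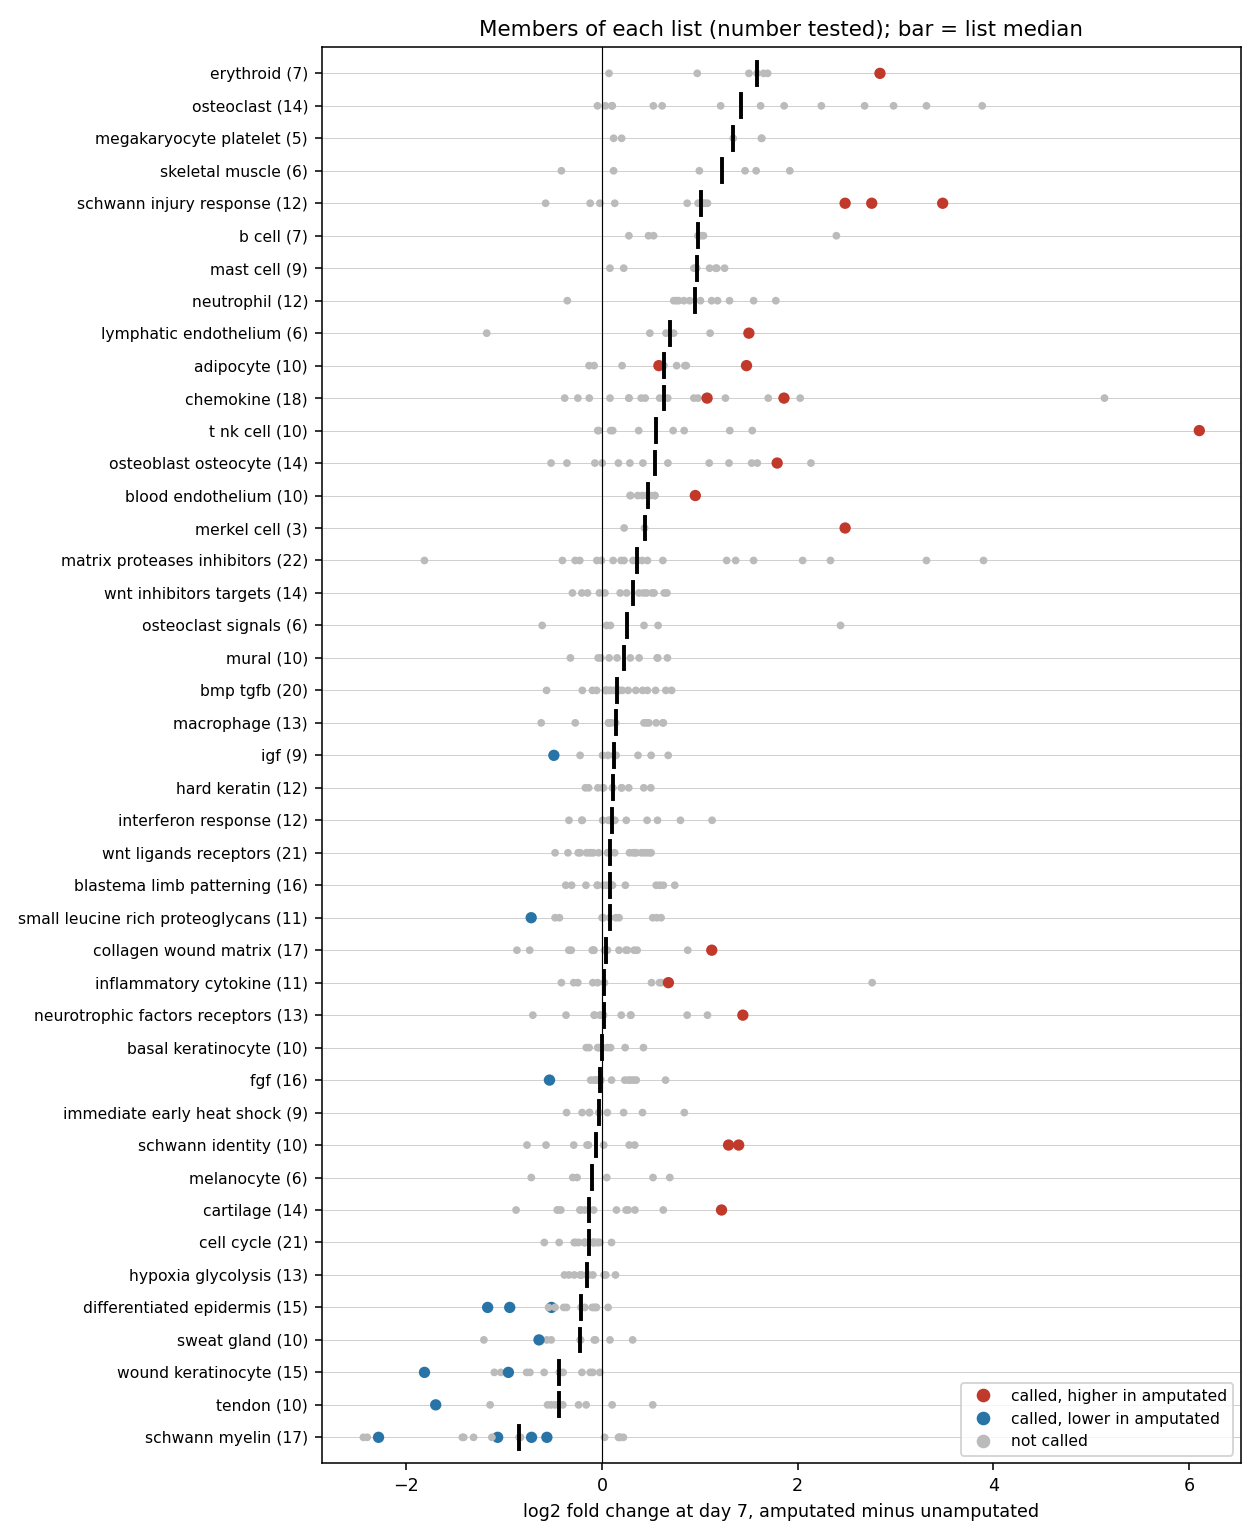
Log2 fold change at day 7, amputated minus unamputated, of each tested member of the 43 lists, with a bar at the list median and the number tested in brackets. Red and blue points are called higher or lower in amputated digits, and grey points are not called. Myelin genes have a median of -0.85 and injury-response genes of 1.01.

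The change at day 7 was compared with that at day 14. Of the 236 genes called at day 7, 224 had the same direction at day 14, where 481 genes were called (2.75%), 230 higher (1.32%) and 251 lower (1.44%). Of these 79 were called at both days, 33.5% of the day 7 genes and 16.4% of the day 14 genes. Ngfr, Gap43, Sox2, Epha5 and Fgf5 had log2 fold changes of 2.25, 3.19, 2.54, 3.25 and 2.63 at day 14. Krt1 had -1.17 at day 7 and -0.38 at day 14, and Slc4a1 2.84 and 0.33. Genes called higher at day 7 had a median of 1.04 at day 7 and 0.52 at day 14, and genes called lower -0.58 and -0.24. These genes were chosen by their day 7 values. List medians moved in different ways. The myelin list had -0.85 with 4 called lower at day 7 and -1.71 with 11 called lower at day 14. Injury-response genes had 1.01 and 0.63, osteoblast and osteocyte genes 0.54 and 1.21, and wound keratinocyte genes -0.44 and 0.21. These list shifts were not tested. The difference of the log2 fold changes (amputated minus unamputated), day 7 minus day 14, was called for 0 genes by edgeR (0%). In that test 1092 genes had an unadjusted p below 0.05 and the smallest adjusted p was 0.751. DESeq2 called 18 genes and limma voom 0.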

How the data were processed

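Counts were raw whole-number counts per gene and library, deposited by the authors for 12 SNI libraries (55487 Ensembl IDs) and 17 time course libraries; the sources used here name neither aligner nor counting tool, and the build was GRCm39 per the submitters' processing notes. Libraries were made from 500 ng of RNA with a poly(A), strand-specific kit and 9 PCR cycles, per the labels' protocols. GENCODE M21 and a name table gave a symbol for 55227 IDs (99.5%), used for names only. Groups came from the labels. The 4 groups of 3 libraries (amputated and unamputated, days 7 and 14) shared 1 fit: filterByExpr (minimum count 10, total 15), TMM, edgeR 4.0.16 quasi-likelihood with robust dispersions, Benjamini-Hochberg adjustment over 17475 genes, a threshold of 0.05, glmTreat for 2-fold, and SE as fold change over the square root of F. R was 4.3.3, limma 3.58.1 and DESeq2 1.42.0. Named genes were the 10 largest rises and 10 largest falls among called protein-coding genes with mean CPM of at least 1 and no overlap, plus listed genes. Some of these genes are not reported here. Members and lists were chosen with earlier results of these data known. The procedure was tested on simulated data. With 3 libraries against 3, an exact permutation test of one gene cannot go below 0.1, and was not used. P-values measure the spread between libraries, whose separation into animals is not stated.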

Additional observations from a re-analysis of the deposited data

Results flagged for a closer look

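In the time course libraries of day 7, which enter no test here, Gap43 and C1ql2 were higher in every SNI library than in every sham library. The gap between the groups was small for both. Other genes of this report shared the pattern: Fgf5, Msmp, Cxcl12 and Mgp. Mgp was at 118.5, 134.1 and 141 CPM after SNI and at 60.5, 77.2 and 77.3 CPM after sham surgery. Gap43 was at 3.01, 6.98 and 5.75 CPM in the SNI libraries of day 7. In the sham libraries of that day it was at 1.51, 1.42 and 2.85 CPM, so the lowest SNI library (3.01 CPM) lay above the highest sham library. C1ql2 was at 0.121, 0.391 and 0.2 CPM after SNI and at 0, 0 and 0.106 CPM after sham surgery. Its lowest SNI library (0.121 CPM) lay close to the highest sham library (0.106 CPM), and both rest on very few counts. In the unamputated libraries labelled SNI, Gap43 was at 0.546, 0.405 and 0.376 CPM and C1ql2 at 0. These values were not tested.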

How the results depend on the processing

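No called gene changed direction under any setting run. The 236 genes called became 57 with only the groups compared, 115 with replicate number as a replicate block, 67 without amputated replicate 1 and unamputated replicate 3 together (a setting chosen after seeing the data), 727 with DESeq2 and 371 with limma voom, and 84 to 315 without each library in turn; RLE size factors gave 232 and no filter 259. The count over 2-fold became 3 with only the groups compared, 2 without the pair of libraries, 13 with DESeq2, 3 with voom and 2 to 8 without each library in turn. The difference between days had 0 calls by edgeR in each setting run and 18 by DESeq2. Without each library, 59 of the 236 genes and 9 of the 20 named genes (Gzmb, Fgf5, Gap43, Slc4a1, Ngfr, Epha5, Sox2, Msmp and Sprr1b) stayed called in every fit. Deviations of same-numbered libraries from their group means had r of -0.163, -0.00995 and -0.203. With 3 libraries a group the deviations are tied to each other, so these r cannot show whether the libraries were paired. The main fit used no pairing. The uncalled Krt14 log2 fold change of -0.03 lay between -0.0709 and 0.00922 over the fits with 1 library left out, and was 0.0434 without that pair and 0.012 with voom. The osteoclast median was 0.72 to 1.68 and the myelin median -1.48 to -0.59 over the fits without a day 7 library. The cause of these shifts was not tested. Depth limits the low genes: 3 counts were 0.0674 to 0.0867 CPM per day 7 library.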
